A study of Mus musculus with 24 samples.

Results

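The genes described here are those by which a white fat cell is usually recognised: Adipoq, Lep, Retn, Plin1, Plin4, Cidec, Lipe, Pparg, Fabp4 and Cfd. They were chosen by name, each taken as the probe set on the array that carries this symbol alone, and where a gene had several, the one of highest mean over the 24 arrays. Of the 10 genes listed, 9 were found, each with 1 probe set, among 22180 genes with a single symbol. Cfd, which encodes the serine protease adipsin, was not analysed here. All 9 passed the filter on low values, which kept 15234 genes that lay above the array's median on at least 3 arrays. Adipoq passed with 3 arrays, the fewest the filter allows: mutant Lac10 replicates 2 and 3 and wild-type V replicate 2. Its genotype difference at Lac10, the group through which it chiefly passed, is therefore given as a description with no test of its own.

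The series holds 12 mutant and 12 wild-type samples, all from mice of a mixed background of FVB, 129SVEV and Black Swiss, in a series on BRCA1, a tumour suppressor protein needed to repair broken DNA. Mutants and wild types were each sampled at 4 stages coded V (virgin), dp12, dp18 and Lac10, with 3 arrays in each of the 8 groups. The codes dp and Lac are read here as pregnancy and lactation, but the design text gives their numbers as months, so the times are not settled. The titles of the Lac10 samples and of most dp18 samples carry a colour word whose meaning is not settled here. At Lac10 it is white, brown and brown in wild type, and white, golden and white in mutants. Tissue, mutated allele and any driver of the mutation are not in the labels, which also do not say how many animals went into a sample. P-values therefore measure the spread between these samples. Levels are log2 intensities, and a difference of 1 is a 2-fold difference. Differences subtract wild type from mutant, or the earlier stage from the later one, and their standard errors (SE) come from a limma fit over all groups; a gene is called where its p, adjusted over the 15234 genes, is under 0.05.

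White fat cells store triglyceride in a single large lipid droplet and release fatty acids from it on demand, and they secrete hormones that report on this store. The mammary epithelium grows within such a fat pad, and during pregnancy and lactation the epithelium fills the pad while the fat cells lose their lipid. The nuclear receptor PPAR gamma, encoded by Pparg, together with C/EBP factors switches on most of the genes described here. Fabp4 and Pparg are also made by endothelial cells, and Lep is made by some cells other than fat cells.

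The promoters of 5 of these genes are shown because these are the genes that the results turn on: Lep, which differed between stages, and Retn, Adipoq, Plin1 and Cidec, which stood far out on a single array. Each is the 250 bases before a RefSeq gene start in mouse build GRCm38.p6, in the direction of transcription. Capitals mark matches, on either strand, to TTGCNNAA, a form of the site that C/EBP factors bind.

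Lep, chr6:29059971-29060220, plus strand: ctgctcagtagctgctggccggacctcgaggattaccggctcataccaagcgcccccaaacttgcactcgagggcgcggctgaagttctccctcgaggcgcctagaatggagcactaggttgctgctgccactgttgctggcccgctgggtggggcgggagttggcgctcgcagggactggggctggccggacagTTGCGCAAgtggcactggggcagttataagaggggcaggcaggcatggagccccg
Retn, chr8:3655520-3655769, plus strand: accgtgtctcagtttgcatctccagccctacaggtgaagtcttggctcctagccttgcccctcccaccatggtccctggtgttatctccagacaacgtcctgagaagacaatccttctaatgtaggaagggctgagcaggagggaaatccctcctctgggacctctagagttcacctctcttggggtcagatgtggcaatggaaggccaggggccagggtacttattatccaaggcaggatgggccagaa
Adipoq, chr16:23146286-23146535, plus strand: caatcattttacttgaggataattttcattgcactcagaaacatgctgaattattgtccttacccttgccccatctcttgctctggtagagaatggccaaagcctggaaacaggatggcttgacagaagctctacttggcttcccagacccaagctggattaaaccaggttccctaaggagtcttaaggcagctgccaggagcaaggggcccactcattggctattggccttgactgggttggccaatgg
Plin1, chr7:79732777-79733026, minus strand: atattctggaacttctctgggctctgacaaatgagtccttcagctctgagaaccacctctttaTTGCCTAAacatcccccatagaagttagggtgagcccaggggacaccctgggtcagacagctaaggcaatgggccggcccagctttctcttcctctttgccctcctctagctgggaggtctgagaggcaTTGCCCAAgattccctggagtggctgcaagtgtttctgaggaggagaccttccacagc
Cidec, chr6:113434765-113435014, minus strand: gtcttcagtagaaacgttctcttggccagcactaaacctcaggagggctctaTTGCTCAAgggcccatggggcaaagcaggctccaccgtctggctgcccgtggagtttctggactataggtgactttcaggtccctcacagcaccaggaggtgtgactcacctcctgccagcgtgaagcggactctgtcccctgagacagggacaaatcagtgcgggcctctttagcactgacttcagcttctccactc

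RefSeq windows were at hand for 8 of the 9 genes, 12 windows in all because Cidec, Pparg and Lipe have several starts. The match in the Lep window, TTGCGCAA, begins 55 bases before the gene start and reads the same on both strands. Plin1 held TTGCCTAA, beginning 187 bases before the start, and TTGCCCAA, beginning 58 bases before it. Cidec held TTGCTCAA 198 bases before the start shown, and none in its other window. Pparg held TTGCCAAA and, on the reverse strand, a match lying as TTTTGCAA in 1 of its windows. In all, 4 of the 12 windows held the motif, against 9.56% of 32851 RefSeq promoter windows of the same length. The windows of Adipoq and Retn held none, so the 4 genes that stood out on a single array do not share these letters in these windows. The site of PPAR gamma with its partner RXR, a repeat of AGGTCA with a single base between the copies, was searched on both strands with up to 2 mismatches. It was in 0 of the 12 windows and in 3.24% of all windows.

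The label of white fat cell was first set against the genes that define it. Adipoq encodes adiponectin, a hormone made almost only by fat cells, and Plin1 encodes perilipin 1, the main coat protein of their droplet. Adipoq lay above the array's median on 3 of 24 arrays, Cidec on 9, Retn on 11, Lep on 14 and Plin1 on 22, while Plin4, Fabp4, Pparg and Lipe did so on all 24. Array medians ran from 5.31 to 5.62. Outside mutant Lac10 replicate 3, Adipoq ranged only from 4.39 to 5.66 and Plin1 from 5.24 to 6.61. The defining genes thus read near the array's middle on most arrays, and the 9 genes are called below by their names.

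Several arrays stood apart. The 3 that resembled the rest least, with median correlations of 0.799 to 0.863, were mutant Lac10 replicate 2, wild-type dp18 replicate 1 and mutant dp18 replicate 1. By the correlation across genes of deviations from the mean, 13 of the 24 arrays were most like the other arrays of their own group, and the 6 dp18 arrays and the 3 mutant Lac10 arrays were not. Mutant Lac10 replicate 3 was most like mutant dp18 replicate 2 (0.67). Mutant dp18 replicate 1 was nearer to mutant Lac10 (0.68) than to its own group (-0.4), as was wild-type dp18 replicate 1 (0.64 against -0.57). Mutant dp18 replicate 3 was nearer to mutant dp12 (0.56) than to its own group (-0.4). The array labelled wild-type Lac10 replicate 1 was likewise nearer to mutant dp12 (0.58) than to its own group (0.21). The array labelled mutant dp18 replicate 2 was nearer to wild-type Lac10 (0.32) than to its own (-0.21). The called Lep differences, the largest genotype differences at Lac10, the Retn, Fabp4, Pparg and Plin4 differences from dp12 to dp18, and the counts of the other lists are given with and without the 3 arrays of lowest correlation and these 2 labelled arrays. The mean level of 20 luminal epithelial genes was between 8.30 and 9.66 on 21 arrays, and lower on mutant Lac10 replicates 2 and 3 (6.63 and 7.95) and mutant dp18 replicate 2 (7.42). The mean of 19 endothelial genes was highest on mutant dp18 replicate 2 (9.82) and mutant Lac10 replicate 3 (9.56). Wild-type V replicate 2 carried skeletal muscle genes at a mean of 7.62, against 5.94 and 6.01 on the other arrays of that group. In bulk RNA of this kind, fewer cells of a type and less RNA per cell cannot be told apart.

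**Figure D1:**
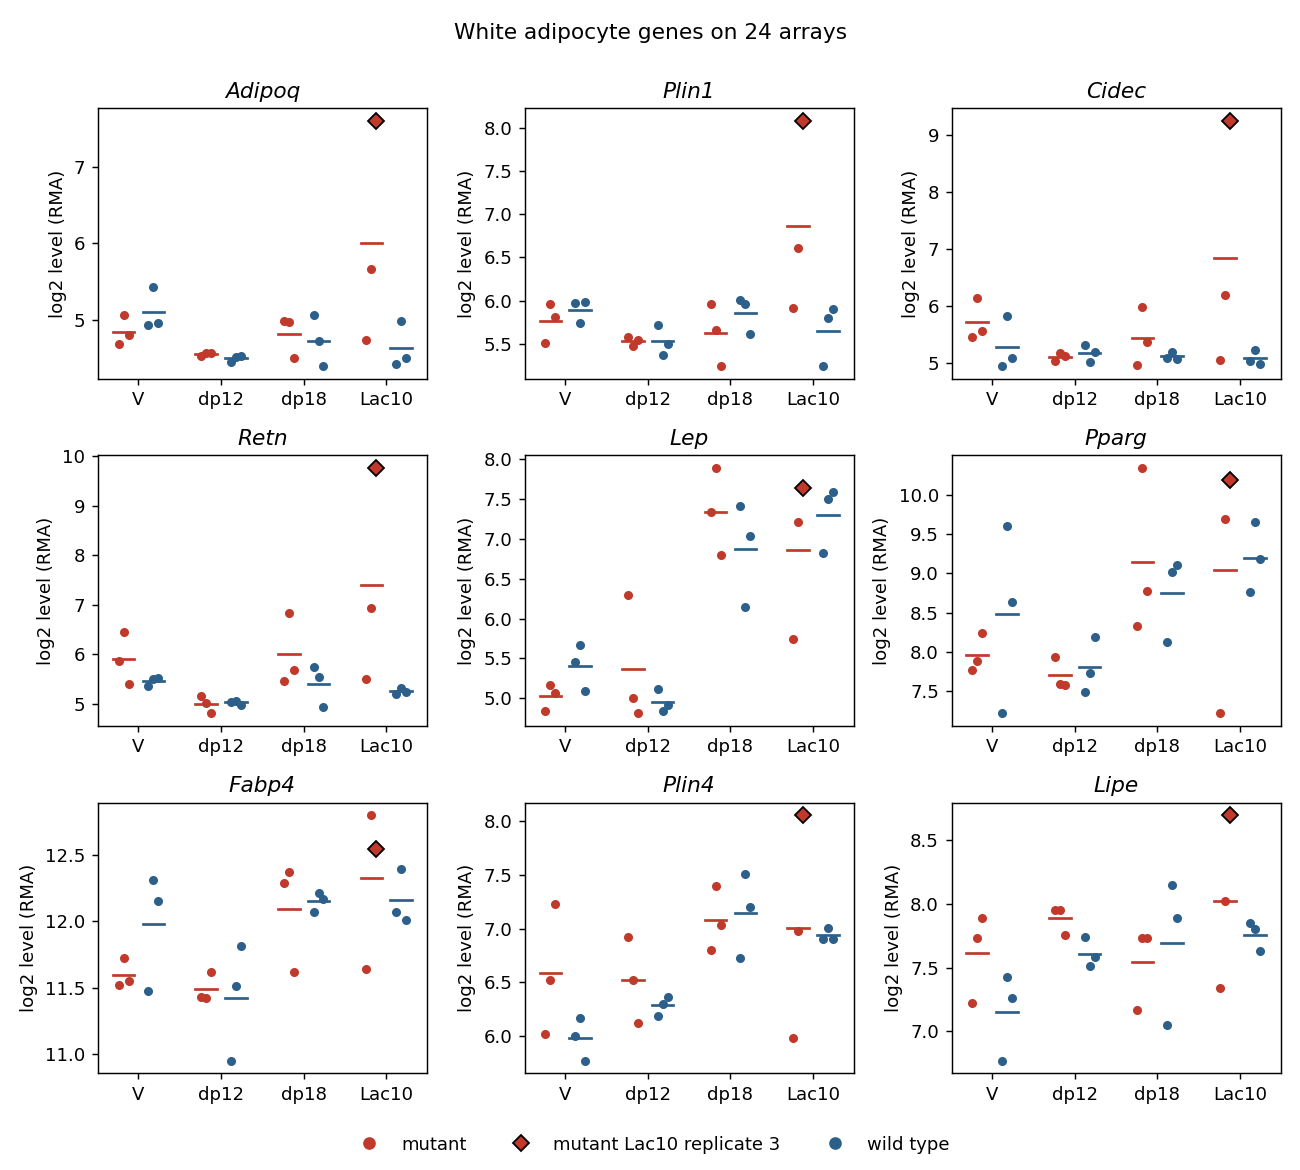
Log2 level (RMA) of each of the 9 genes on the 24 arrays by stage, with mutant arrays left of wild-type arrays; points are arrays, bars are group means of 3, and the diamond is mutant Lac10 replicate 3. Adipoq, Plin1, Cidec and Retn are highest on that array by 1.47 to 3.06, and Lep lies higher at dp18 and Lac10 than at V and dp12 in both genotypes.

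Leptin, the hormone by which fat cells report stored energy, was the only one of the 9 genes that changed with stage past the threshold in both genotypes. Lep read 4.84, 5.17 and 5.07 on mutant V arrays, 6.29, 5.00 and 4.81 at dp12, 7.34, 7.89 and 6.79 at dp18 and 5.74, 7.21 and 7.64 at Lac10. In wild type it read 5.45, 5.67 and 5.09 at V, 5.12, 4.84 and 4.91 at dp12, 7.41, 6.15 and 7.04 at dp18 and 6.82, 7.50 and 7.59 at Lac10. The 12 arrays of dp18 and Lac10 thus lay between 5.74 and 7.89, and the 12 of V and dp12 between 4.81 and 6.29. The overlap between them came from mutant dp12 replicate 1, at 6.29; the other 11 arrays of V and dp12 did not pass 5.67.

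At Lac10 against V, Lep was 3.58-fold higher in mutants, a log2 difference of 1.84 (SE 0.44, adjusted p = 0.0313 in limma). In wild type the same comparison gave 3.73-fold, a log2 difference of 1.90 (SE 0.44, adjusted p = 0.012 in limma). Lac10 arrays did not overlap V arrays in either genotype. Among the V and dp12 arrays, only mutant dp12 replicate 1 and wild-type V replicate 2 read Lep above their array's median. The fold sizes thus start from low levels, for which there is no detection call. Over all genes, 2.88% were called in mutants (0.282% higher at Lac10) and 7.24% in wild type (6.01% higher), and groups that did not overlap with Lac10 above V made up 4.04% in mutants and 26.4% in wild type. The change in mutants differed from that in wild type by -0.06 (SE 0.62, 95% interval -1.35 to 1.23, adjusted p = 0.953 in limma). Leaving out single arrays of the groups compared, the mutant call held only without mutant Lac10 replicate 1 (2.40, adjusted p = 0.00188 in limma) and otherwise the difference was 1.45 to 1.91 with an adjusted p of 0.0591 to 0.188. The wild-type call did not hold without V replicate 3, Lac10 replicate 2 or Lac10 replicate 3, where the difference was 1.74 to 1.80 (adjusted p of 0.0639 to 0.0655 in limma). Without the 3 arrays of lowest correlation the values were 1.67 in mutants, not called (adjusted p = 0.0816), and 1.90 in wild type (adjusted p = 0.00454 in limma). Without the arrays labelled wild-type Lac10 replicate 1 and mutant dp18 replicate 2 they were 1.84 in mutants and 2.14 in wild type, both called (adjusted p = 0.0325 and 0.0103 in limma).

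By size, the difference lay between dp12 and dp18. Lep was 1.97 higher at dp18 in mutants (SE 0.44, 3.92-fold) and 1.91 higher in wild type (SE 0.44, 3.75-fold), with no overlap of the arrays in either genotype. Adjusted p was 0.167 in mutants and 0.484 in wild type in limma, where 0% of genes were called in either genotype, and 2082 and 1476 genes had an unadjusted p under 0.05. Non-overlapping groups with dp18 above dp12 were 5.49% of genes in mutants and likewise 5.49% in wild type. With the step averaged over both genotypes, a comparison added after these values were seen, Lep at dp18 exceeded dp12 by 1.94 (SE 0.31, 3.84-fold, adjusted p = 0.00807 in limma). Of all genes, 2.05% were called in that averaged step and 0.177%, or 27 genes, were higher at dp18. At Lac10 against V the averaged difference of Lep was 1.87 (SE 0.31, 3.65-fold, adjusted p = 0.00102 in limma), where 6.6% of genes were called and 3.07% were higher at Lac10. Without the arrays labelled wild-type Lac10 replicate 1 and mutant dp18 replicate 2, the averaged differences were 1.80 from dp12 to dp18 and 1.99 from V to Lac10, both called (adjusted p = 0.0233 and 0.00077 in limma). Without the 3 arrays of lowest correlation they were 1.81 and 1.78, both called (adjusted p = 0.0422 and 0.00231 in limma). From V to dp12 the averaged difference of Lep was -0.05 (SE 0.31, adjusted p = 0.918 in limma), made up of 0.34 in mutants and -0.45 in wild type. From dp18 to Lac10 it was -0.02 (SE 0.31, adjusted p = 1 in limma), made up of -0.48 in mutants and 0.44 in wild type. Neither pair of genotype values was called different (adjusted p = 0.713 and 0.742 in limma).

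Body weight moved with these stages; the titles of 22 of the 24 samples give a mass in grams, read here as the weight of the mouse. Weights were 22 to 27 g at V, 29 to 47 g at dp12, 40 to 50 g at dp18 and no more than 39 g at Lac10. With weight as a covariate, on the 22 arrays that have one, the averaged difference of Lep from dp12 to dp18 was 1.36 and was not called (adjusted p = 0.695 in limma). That from V to Lac10 was then 1.46 in mutants and 1.34 in wild type, neither called (adjusted p = 0.0779 and 0.0535 in limma). The averaged differences of Lep from V to dp12 and from dp18 to Lac10 were then -0.80 and 0.84, neither called (adjusted p = 0.17 and 0.202 in limma). Mutant dp12 replicate 1, the dp12 array with the highest Lep, had the highest weight of the dp12 samples, 47 g. The part of body weight in the Lep difference was not tested beyond this fit.

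Resistin and adiponectin, the other secreted hormones, were not called in any stage comparison. Retn read 5.87, 6.44 and 5.40 on mutant V arrays, 5.16, 5.02 and 4.80 at dp12, 5.46, 6.84 and 5.68 at dp18 and 5.50, 6.93 and 9.77 at Lac10. In wild type every array lay between 4.93 and 5.74. The mutant dp18 arrays lay above the mutant dp12 arrays without overlap, a difference of 1.00 (SE 0.63, adjusted p = 0.446 in limma). The difference became 1.27 with the 3 arrays of lowest correlation left out and 0.58 with the 2 labelled arrays named above left out, and was not called in either case (adjusted p = 0.444 and 0.654). Adipoq lay between 4.39 and 5.43 on all 12 wild-type arrays, and in mutants between 4.50 and 5.06 at V, dp12 and dp18 before reading 4.73, 5.66 and 7.61 at Lac10. For both genes the spread of the mutant Lac10 group was the widest of the 8 groups, with standard deviations (SD, n = 3) of 2.17 for Retn and 1.47 for Adipoq.

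The droplet proteins differed chiefly in how far mutant Lac10 replicate 3 stood out. Cidec, which promotes the fusion of droplets into a single large one, and Plin1 stood far out on that array, as Retn and Adipoq did. Cidec read 5.05, 6.20 and 9.26 on mutant Lac10 arrays and 5.04, 5.22 and 4.99 on wild-type Lac10 arrays, and between 4.94 and 6.14 on the arrays of the other stages. Plin1 read 5.91, 6.61 and 8.08 on mutant Lac10 arrays and 5.24, 5.80 and 5.90 on wild-type Lac10 arrays. Plin4, a perilipin that coats small and growing droplets, and Lipe, the hormone-sensitive lipase that cleaves stored triglyceride, varied on every array without that gap. At Lac10, Plin4 read 5.98, 6.98 and 8.06 in mutants and 6.90, 7.01 and 6.90 in wild type, and Lipe read 7.34, 8.02 and 8.70 in mutants and 7.85, 7.80 and 7.63 in wild type. In both genes the wild-type arrays lay inside the span of the mutant ones.

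Pparg, the receptor, and Fabp4, the carrier of fatty acids in the fat cell's cytoplasm, moved together across arrays (Pearson correlation 0.84 over 24 arrays). Pparg read 7.77, 7.88 and 8.24 on mutant V arrays, 7.94, 7.60 and 7.58 at dp12, 8.33, 10.34 and 8.77 at dp18 and 7.23, 9.69 and 10.19 at Lac10. In wild type it read 7.22, 9.60 and 8.63 at V, 7.49, 7.74 and 8.19 at dp12, 8.13, 9.01 and 9.10 at dp18 and 8.76, 9.65 and 9.18 at Lac10. Its highest array was mutant dp18 replicate 2, which also had the highest mean of the endothelial genes. The part of endothelial RNA in the levels of Pparg and Fabp4 was not tested.

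Fabp4 spanned 11.42 to 11.62 at dp12 and 11.62 to 12.37 at dp18 in mutants, and 10.95 to 11.81 at dp12 and 12.07 to 12.21 at dp18 in wild type. In the step averaged over both genotypes its level at dp18 against dp12 gave 0.67 (SE 0.20, adjusted p = 0.0692 in limma), Pparg gave 1.19 (SE 0.44, adjusted p = 0.105) and Plin4 gave 0.71 (SE 0.27, adjusted p = 0.106). None of these 3 was called. Without the 3 arrays of lowest correlation the values were 0.64, 1.55 and 0.88, and without the 2 labelled arrays 0.60, 0.89 and 0.63, again with none called (adjusted p of 0.116 to 0.183 in limma). The median of the 9 genes in that step was 0.67 (0.64 without the 3 arrays and 0.48 without the 2), with 8 of 9 differences above 0, against a median of -0.19 over all genes tested; Lipe was the exception, at -0.13.

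In the step from V to dp12, 0 of the 9 genes were called in either genotype, where 4.44% of all genes were called in mutants and 6.45% in wild type. At an unadjusted p under 0.05 the count was also 0 of 9 in each genotype, against 15.3% of all genes in mutants and 32.4% in wild type. The median difference of the 9 genes was -0.23 in mutants and -0.44 in wild type, against 0.01 and 0.28 over all genes, and 7 of 9 were negative in each. Averaged over both genotypes it was -0.33, with 0 of 9 called in limma against 15.8% of all genes. With each array centred on housekeeping genes, all genes shifted by -0.46 in that averaged step and 1 of the 9 genes was called, Fabp4 (-0.79, adjusted p = 0.0451 in limma), where 25.6% of all genes were called.

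From dp18 to Lac10, 0 of 9 were called in mutants, in wild type or on average, and 0% of all genes were called in any of the 3. In mutants Plin1, Cidec and Retn had an unadjusted p under 0.05 in limma, against 2.95% of all genes. Each had the mutant Lac10 replicate 3 value in its group. Adipoq is left out of this list because it passed the filter chiefly through that group. In wild type 0 of 9 had an unadjusted p under 0.05, against 8% of all genes. Averaged over both genotypes, 705 genes over the array had an unadjusted p under 0.05. The median of the 9, Adipoq included, was 0.48 in mutants and -0.03 in wild type.

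**Figure D2:**
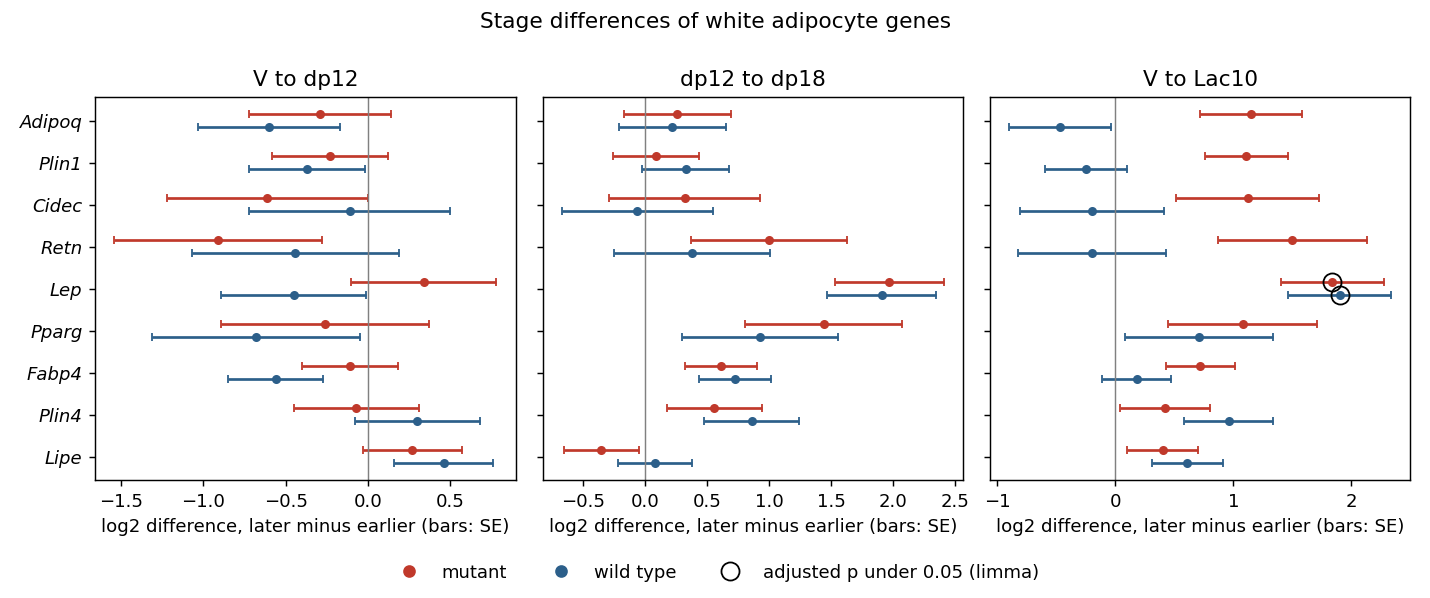
Log2 difference (later minus earlier stage, with SE) of each gene in mutants, drawn above wild type, for 3 stage comparisons of 3 against 3 arrays; open rings mark an adjusted p under 0.05 in limma. Only Lep at Lac10 against V is ringed, at 1.84 in mutants and 1.90 in wild type, and its dp12 to dp18 values are of like size without a ring.

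Between genotypes, none of the 9 genes differed past the threshold at any stage. Counts called were 0 of 9 at V, dp12, dp18 and Lac10, where 0.0263%, 0%, 0% and 0.236% of all genes were called, and 0 of 9 in the genotype difference averaged over stages, where 0% were. At an unadjusted p under 0.05 in limma the members numbered 0, 0, 0 and 4 at the 4 stages and 1 on average, against 15.8%, 1.21%, 0.656%, 17.6% and 3.01% of all genes. The 4 at Lac10 include Adipoq, which passed the filter chiefly through the mutant Lac10 group and so adds no support. The medians of the 9 genes were -0.14, 0.05, 0.10 and 0.26 at the 4 stages, against 0.20, 0.00, 0.01 and -0.19 over all genes. The Lac10 median includes Adipoq as well. A test that the genotype difference is the same at every stage called 0 of the 9 genes, with adjusted p between 0.371 for Plin1 and 0.902 for Pparg in limma, against 0.00656% of all genes and 1892 at an unadjusted p under 0.05.

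The genotype values that came nearest to the threshold were those at Lac10. Retn averaged 7.40 ± 2.17 in mutants and 5.25 ± 0.06 in wild type (SD, n = 3 each), a difference of 2.15 (SE 0.63, adjusted p = 0.101 in limma). Plin1 averaged 6.87 ± 1.11 in mutants and 5.65 ± 0.35 in wild type, a difference of 1.22 (SE 0.35, adjusted p = 0.0976 in limma). For these 2 genes all mutant Lac10 arrays lay above all wild-type ones, though for Plin1 the lowest mutant array, 5.91, and the highest wild-type array, 5.90, nearly touched. Groups that do not overlap with mutants higher made up 3.24% of all genes at Lac10.

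Adipoq averaged 6.00 ± 1.47 in mutants and 4.63 ± 0.30 in wild type at Lac10 (difference 1.36, SE 0.43), and all 3 wild-type values lay under their array's median. Cidec averaged 6.83 ± 2.17 in mutants and 5.08 ± 0.12 in wild type (difference 1.75, SE 0.61, adjusted p = 0.157 in limma). Both pairs of groups overlapped. The wild-type Lac10 values of Cidec, and those of Retn, likewise all lay under their array's median. Lep went the other way, at 6.86 ± 0.99 in mutants and 7.30 ± 0.42 in wild type, a difference of -0.44 (SE 0.44, adjusted p = 0.594 in limma).

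These 4 largest values rested chiefly on mutant Lac10 replicate 3. Without it the differences were 0.96 for Retn, 0.61 for Plin1, 0.56 for Adipoq and 0.54 for Cidec, with adjusted p of 0.106 to 0.254 in limma for Retn, Plin1 and Cidec. Without replicate 2 they were larger, at 2.38, 1.35, 1.54 and 2.07, with adjusted p of 0.439 to 0.531 for the same 3 genes. Without replicate 1, which read lowest of its group for all 4, they were 3.10, 1.70, 2.00 and 2.64, and Retn, Plin1 and Cidec were then called, with adjusted p of 0.0182 to 0.0242 in limma. In that fit 1.92% of all genes were called, 0.138% higher in mutants. Without replicates 2 and 3 together, a comparison chosen after the values were seen that assumes the lone array left to vary like the other groups, they were 0.24, 0.26, 0.10 and -0.04. Without the arrays labelled wild-type Lac10 replicate 1 and mutant dp18 replicate 2 they were 2.12, 1.02, 1.26 and 1.73, with adjusted p of 0.148 to 0.256 in limma for Retn, Plin1 and Cidec. Leaving out the 3 arrays of lowest correlation, of which mutant Lac10 replicate 2 alone belongs to these groups, gave the same differences as without that replicate, with adjusted p of 0.189 to 0.239.

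On mutant Lac10 replicate 3, 4 of the 9 genes stood far above every other array. Cidec exceeded the highest of the 23 others by 3.06 on the log2 scale, Retn by 2.83, Adipoq by 1.95 and Plin1 by 1.47. Of all 15234 genes, 18 (0.118%) were more than 1 above every other array there, and these 4 of the 9 were among them. Plin4 and Lipe were also highest on that array, each by 0.55, so that 6 of the 9 genes peaked there, against 6.81% of all genes. Adipoq, which passed the filter chiefly through the mutant Lac10 group, adds no support to either count. Lep, Pparg and Fabp4 did not: they lay 0.25, 0.15 and 0.26 below their highest array. The array that came second was mutant Lac10 replicate 2 for Cidec, Retn, Adipoq and Plin1 alike, and wild-type dp18 replicate 2 for Plin4 and Lipe.

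Of the other 14 genes more than 1 above every other array, 3 are on the lists of adipocyte-related genes used here. Pck1, whose enzyme supplies glycerol for triglyceride in fat cells, read 8.27 against at most 5.86 elsewhere. Cyp2e1, a cytochrome P450 found in fat and liver, read 10.72 against 7.90. Car3, the carbonic anhydrase abundant in fat and muscle, read 12.08 against 10.15. The remaining 11, named after their values were seen, were Dbp, Gbp4, Cd274, Abcd2, Slc7a10, Ly6c1, Pbld1, Slfn3, Dhdh, Snord118 and Snord22. Dbp is a clock-controlled transcription factor, and Gbp4 and Cd274 are induced by interferon.

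The wider lists showed the same array in part. It was the highest of 24 for 6.81% of all genes. Among other adipocyte-rich genes it was highest for 8 of 26, and for 7 of 20 genes of fatty acid uptake and triglyceride assembly. It was highest for 6 of 16 genes of lipid droplets and lipolysis and 3 of 11 of insulin signalling. Other arrays peaked in these lists too. Wild-type Lac10 replicate 3 was highest for 9 of the 20 and 4 of the 16. The share of all genes that peaked on this wild-type array is not given, so these counts are not read as a result. Mutant dp18 replicate 2 was highest for 6 of the 26 and 4 of the 11, against 8.09% of all genes. Mutant Lac10 replicate 3 was highest for 2 of 16 adipogenic transcription factors, 1 of 10 brown adipocyte genes and 2 of 19 endothelial genes, not far from its share of all genes. It was highest for 0 of 15 preadipocyte and fibroblast genes. It was also highest for 0 of 20 luminal, 0 of 15 milk protein, 0 of 15 basal, 0 of 16 macrophage and neutrophil, 0 of 17 lymphocyte and 0 of 13 skeletal muscle genes. Its mean of the 17 lymphocyte genes was 7.23, above the 5.67 to 6.74 of the wild-type Lac10 arrays, and this mean was 7.13 on mutant dp18 replicate 2, while the highest array of mutant V read 7.49 and that of wild-type V 7.68. Its mean of the 15 milk protein genes, 11.83, lay within the 11.13 to 12.02 of the wild-type Lac10 arrays. Its luminal mean of 7.95 lay under their 8.66 to 9.49, and its endothelial mean of 9.56 above their 8.36 to 9.25. The part of cell makeup in the high values was not tested. Its title gives the lowest weight of the Lac10 samples.

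**Figure D3:**
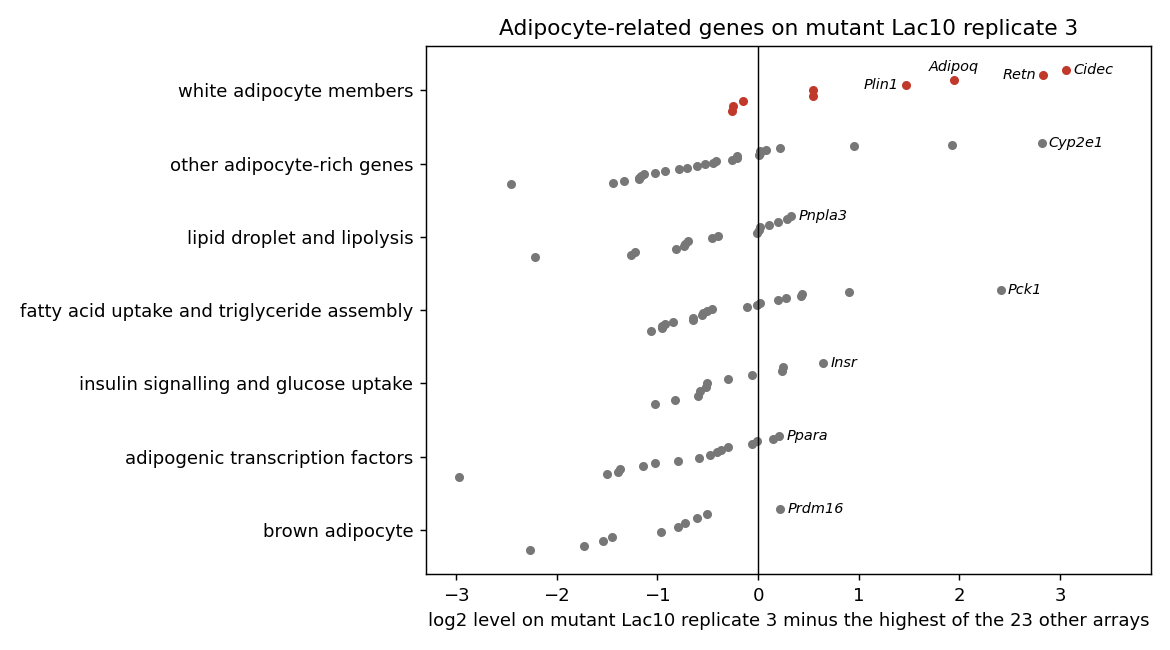
Log2 level on mutant Lac10 replicate 3 minus the highest of the 23 other arrays, 1 point per gene, in 7 lists of adipocyte-related genes; the 4 highest of the top row and the highest of each other row are named. Points right of 0 are genes that peak on that array: Cidec lies at 3.06, Cyp2e1 at 2.82 and Pck1 at 2.41, while most points lie left of 0.

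How far the 9 genes moved together depended on that array. Of their 36 pairs, 9 had a Pearson correlation above 0.7 over 24 arrays and 3 over the 23 without mutant Lac10 replicate 3. The 3 were Adipoq with Plin1 (0.93 over 24 arrays, 0.75 over 23), Cidec with Retn (0.95 and 0.80) and Fabp4 with Pparg (0.84 and 0.82). Plin1 with Cidec gave 0.85 over 24 arrays and 0.34 over 23. These values describe arrays that share genotype, stage and cell makeup, and carry no test.

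The genes whose pattern was most like the mean of the 9, each centred on its own mean, were Pbld1 (Pearson correlation 0.92 over 24 arrays), Vwa3a (0.90), Adamts6 (0.89), Gpr1, Gipc3, Osbpl6 and Hecw2 (each 0.87), and Epas1, Sult1a1 and Slitrk4 (each 0.86). Epas1 encodes the hypoxia factor HIF-2 alpha, abundant in endothelium and fat. The 5 least like it were Pabpc4 and Actg1 (each -0.84), Atpif1 (-0.81), and Cldn4 and Phlda1 (each -0.80), of which Cldn4 is an epithelial tight junction gene. Over the 23 arrays, a choice made after the values were seen, the most alike were Aqp1 (0.95), Vwa3a (0.92), Ripply3 (0.91) and Timp4 (0.90), and the least was the epithelial gene Rab25 (-0.91). Across arrays the mean of the 9 genes thus ran opposite to these epithelial genes, and the part of cell makeup in this was not tested.

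**Figure D4:**
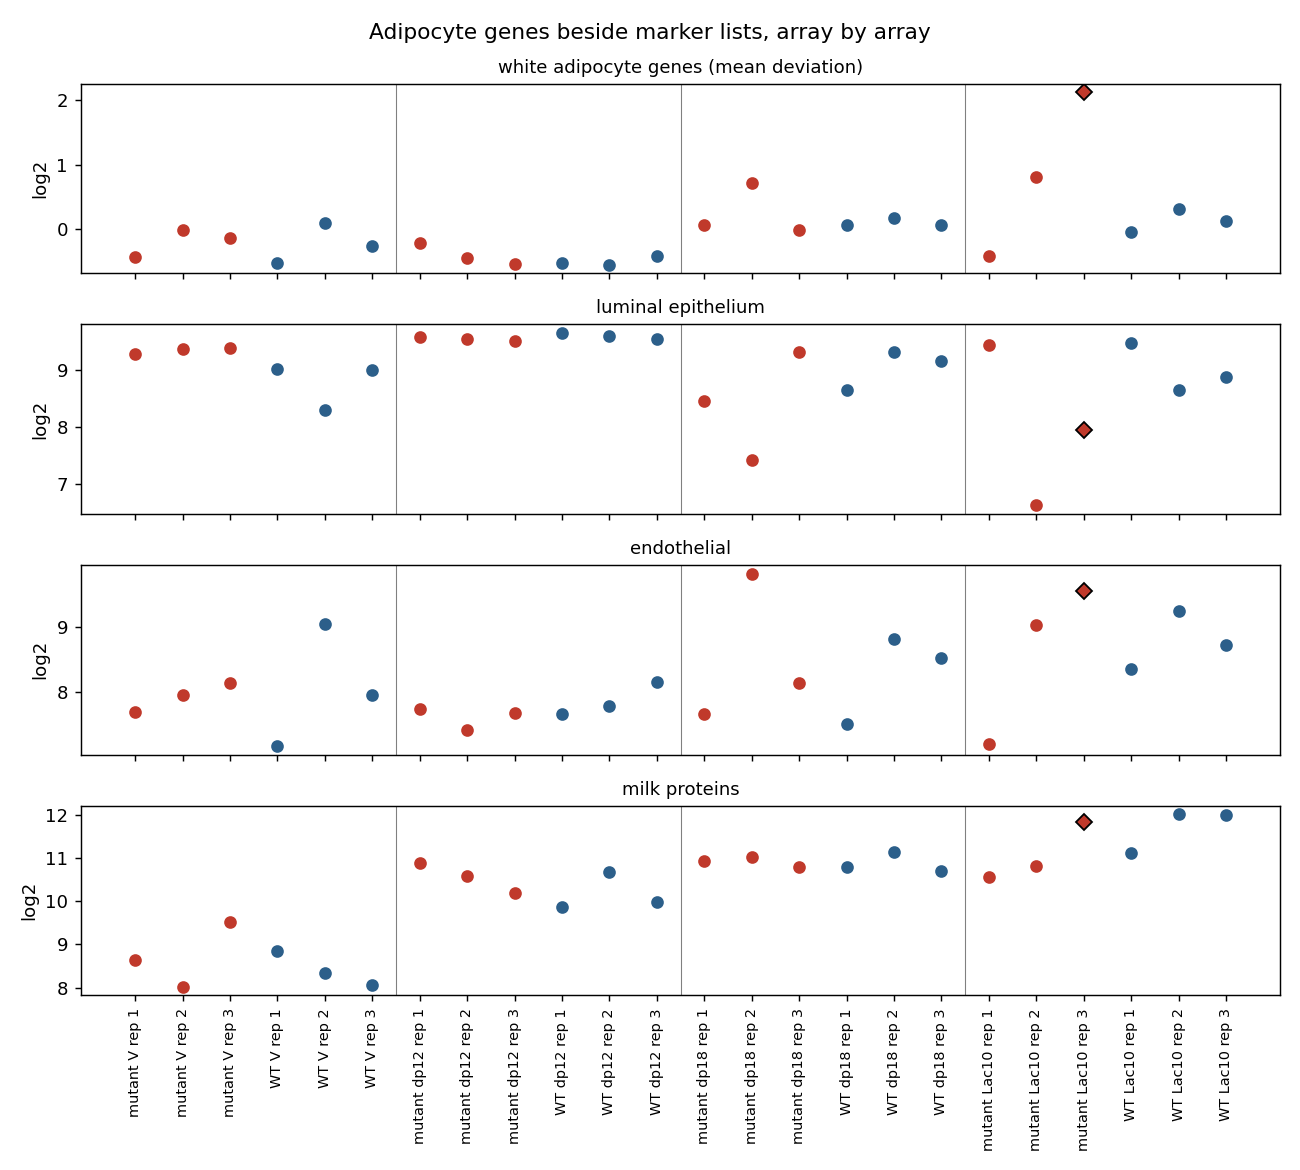
Each array's mean deviation of the 9 genes from their own means (top) and the mean log2 level of the luminal, endothelial and milk protein lists, by stage, mutant arrays left of wild-type arrays; the diamond is mutant Lac10 replicate 3. Mutant Lac10 replicates 2 and 3 and mutant dp18 replicate 2 are high in the top panel, low for luminal genes (6.63, 7.95 and 7.42) and high for endothelial genes (9.03, 9.56 and 9.82).

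Other genes of fat metabolism were set beside the 9 for Lac10 against V, where 6.01% of all genes were called higher in wild type and 0.282% in mutants. The lists' counts below are to be read against these shares, since over all genes, too, more were called higher in wild type. In wild type, 10 of 20 genes of fatty acid uptake and triglyceride assembly rose and 0 fell, led by Acaca (3.49, SE 0.50), Fasn (3.32, SE 0.52), Gpd1 (3.22, SE 0.51) and Lpin1 (2.75, SE 0.62), all with adjusted p of 0.0108 or less in limma. Acaca and Fasn make fatty acids from acetyl-CoA, Gpd1 makes glycerol phosphate and Lpin1 makes diacylglycerol. In mutants, 1 of the 20 rose and 0 fell, namely Cd36, the fatty acid translocase (1.44, SE 0.37, adjusted p = 0.0413 in limma). Tested directly, the difference between genotypes in this change was not called for any of the 20; it was -2.68 (SE 0.72, adjusted p = 0.0636 in limma) for Gpd1 and -2.57 (SE 0.88, adjusted p = 0.0856) for Lpin1.

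In wild type, 3 of 16 genes of lipid droplets and lipolysis rose: Cidea, a relative of Cidec that the mammary epithelium uses for milk lipid (4.36, SE 0.80, adjusted p = 0.00309 in limma), Abhd5, the activator of triglyceride lipase (1.82, SE 0.43, adjusted p = 0.0146), and G0s2, its inhibitor (1.40, SE 0.30, adjusted p = 0.0073). In mutants 0 of 16 passed, and Cidea gave 2.76 (SE 0.80, adjusted p = 0.062). Among 16 adipogenic transcription factors, 5 rose in wild type, led by Srebf1 (1.90, SE 0.32), Klf15 (1.65, SE 0.40), Ppargc1b (1.35, SE 0.29) and Nr3c1 (1.18, SE 0.28). In mutants 0 rose and 1 fell, Klf4 (-1.20, SE 0.30, adjusted p = 0.0365 in limma). For Srebf1, which drives fatty acid synthesis genes, the mutant change minus the wild-type one was -2.22 (SE 0.46, adjusted p = 0.0537 in limma), and its level at Lac10 was lower in mutants, a difference of -1.85 (SE 0.32, adjusted p = 0.0299 in limma). This was the only one of the 16 called between genotypes at Lac10, where 0.236% of all genes were. Without the 3 arrays of lowest correlation the Srebf1 change differed by -1.75, called (adjusted p = 0.00625), and its Lac10 level by -1.38, not called (adjusted p = 0.1 in limma); without the 2 labelled arrays they were -2.28 and -1.91, both called (adjusted p = 0.031 and 0.0101).

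Of 11 insulin signalling genes, 3 rose in wild type (Irs1 2.08, SE 0.45; Slc2a4 1.30, SE 0.38; Pik3r1 1.18, SE 0.29) and 0 passed in mutants. Slc2a4 encodes the insulin-regulated glucose transporter of fat and muscle. Of 26 other adipocyte-rich genes, 5 rose in wild type, led by Pcx (3.80, SE 0.55), Thrsp (3.33, SE 0.44), Orm1 (2.41, SE 0.63) and Cdh13 (1.64, SE 0.48), and 1 rose in mutants, Thrsp (1.86, SE 0.44, adjusted p = 0.0314 in limma). Of 10 brown adipocyte genes, 2 rose in wild type, Cidea and Otop1 (2.15, SE 0.45, adjusted p = 0.00686 in limma), and 0 in mutants. Of the milk protein genes, 7 of 15 were higher at Lac10 in mutants and 13 of 15 in wild type, with median changes of 1.36 and 2.63. In mutants the medians of the fat-related lists were lower, from -0.12 to 0.36. The median change of the luminal list was -1.43 in mutants and 0.11 in wild type, and that of the endothelial list 0.62 and 0.67. Many of these lipid genes are also made by milk-producing epithelium, and which cells the changes came from was not tested. Over the same comparison the 9 genes had a median of 1.11 in mutants and 0.18 in wild type, against -0.18 and 0.15 over all genes, and Lep alone of the 9 was called in each. The mutant median includes Adipoq, which passed the filter chiefly through mutant Lac10 and adds no support. The mutant median ran over 0.34 to 1.78 when single arrays were left out and was -0.27 without mutant Lac10 replicates 2 and 3.

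Counts of the lists were taken again without the arrays that stood apart, a step added after the values were seen. Without the 3 arrays of lowest correlation, genes higher in wild type numbered 13 of 20 for fatty acid uptake and triglyceride assembly, 8 of 16 for droplets and lipolysis, 7 of 16 transcription factors, 4 of 11 for insulin signalling, 7 of 26 other adipocyte-rich genes and 3 of 10 brown adipocyte genes. Over all genes 19.4% were then called higher in wild type and 0.328% in mutants. In mutants the counts were 1 of 20, 0 of 16, 0 of 16, 0 of 11, 3 of 26 and 0 of 10. With those arrays left out the difference between the genotypes' changes was called lower for 1, 1, 2, 1, 0 and 0 genes of the same 6 lists. No gene of these lists was called higher. Of all genes, 13.2% were called in either direction and 4.21% were called higher. Without the 2 labelled arrays the counts higher in wild type were 10, 3, 5, 3, 5 and 3, against 5.49% of all genes, and in mutants 1, 1, 0, 0, 2 and 1, against 0.295%. Without mutant Lac10 replicate 1 the counts higher in mutants were 5, 3, 0, 3, 5 and 1, against 1.53% of all genes. The counts lower in mutants were then 0, 1, 4, 1, 1 and 1, where 11.8% of all genes were called in either direction.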

How the data were processed

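The deposited values are log2 intensities. The submitters' processing notes name RMA, robust multi-array averaging, with no version. This method subtracts background, forces 1 common distribution on the arrays and averages the probes of a set, which hides any change shared by nearly every gene, and it gives no detection call. Trizol was used to extract the total RNA, which was then biotin-labelled, as the labels' protocols say; another protocol field describes a different preparation and was left aside. The lowest value was 1.98 and the highest 13.5. Precision is limited by the number of arrays.

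The platform annotation pairs 23521 of 41345 probe sets with a single symbol; 1814 have several and 16010 have none. Groups came from the titles and the stage label. Each gene was fitted with limma 3.58.1 in R 4.3.3 on 24 arrays with 1 mean per group (16 residual and 4.35 prior degrees of freedom), with Benjamini-Hochberg adjustment over 15234 genes and a threshold of 0.05; the filter removed 6946 genes. The fit was run on simulated data with independent noise of equal spread on every array, which does not cover arrays that stand apart. The 9 genes, the 17 other lists, the motifs and the tests were chosen with earlier results of these data known. From each other list the text names up to 4 genes past the threshold with the largest difference, or the 2 largest where none passed, and the 10 most and 5 least alike genes. Luminal, endothelial, milk and other cell type lists were read as mean levels per array. Titles number the wild-type replicates, while mutants were numbered in accession order. Among 18 same-numbered wild-type pairs, 4 had deviations correlated above 0.1 (range -0.39 to 0.31), so the numbers were not taken to pair samples. Promoters were credited to RefSeq and matched by symbol. Alternatives covered the probe set rule, the filter, centring on 25 housekeeping genes or on the array median, a variance trend, array weights, the compared arrays alone, single arrays left out, 3 arrays of median correlation under 0.9 left out, body weight and a replicate block.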

Additional observations from a re-analysis of the deposited data

How the results depend on the processing

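Alternatives were compared with the values above for the median difference of the 9 genes and for the count of them called, and 0 called values changed sign. With housekeeping centring the median was 0.84 for genotype at Lac10 and -0.27 from V to Lac10 in wild type. From V to dp12 it was -0.67 in mutants, -0.91 in wild type and -0.79 in both. Of the 9 genes, 0 were then called from V to Lac10 in wild type, where 1501 of all genes were called. From V to dp12 in both genotypes 1 of the 9 was called, against 25.6% of all genes. With array-median centring, without the 3 arrays of low correlation, and with the compared arrays alone, 0 were called from V to Lac10 in mutants. The compared arrays alone called 1, 2 and 3 from V to dp12 in mutants, wild type and both, and 2 from V to Lac10 in wild type. Array weights called 1 and 2 for genotype at V and Lac10, 4 for the interaction, 1, 5 and 6 from V to dp12 in mutants, wild type and both, 5 in wild type and 5 in both from dp12 to dp18, 1 from dp18 to Lac10 and 4 from V to Lac10 in wild type, and 0 from V to Lac10 in mutants. The weighted medians were -0.24 for genotype at Lac10, and -0.14 from dp18 to Lac10 and 0.07 from V to Lac10 in mutants. With body weight as a covariate, 0 were called from V to Lac10 in mutants, wild type and both, and 0 from dp12 to dp18 in both. The share of all genes called is not given for the weighted fits or for the compared arrays alone. Their counts are therefore not read as results about the 9 genes. The cause of these shifts was not tested.

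Leaving out single arrays gave medians of 0.06 to 0.74 for genotype at Lac10, 0.34 to 1.78 from V to Lac10 in mutants and 0.34 to 0.90 in both. Counts called ran over 0 to 4 for genotype at Lac10, 0 to 7 from V to Lac10 in mutants and 0 to 1 in wild type. In both genotypes they ran over 1 to 7 from V to Lac10 and 1 to 2 from dp12 to dp18. For these averaged comparisons with single arrays left out, the share of all genes called is not given. Their counts are therefore not read as results about the genes described here. The counts of 4 and 7 came without mutant Lac10 replicate 1. In that fit 1.92% of all genes were called for genotype at Lac10 and 11.8% from V to Lac10 in mutants. The 4, and the 7 in mutants, include Adipoq, which passed the filter chiefly through mutant Lac10. The medians that involve mutant Lac10 include Adipoq too. Without mutant Lac10 replicates 2 and 3 the medians were -0.42 for genotype at Lac10, and -0.27 from V to Lac10, with 0 called, and -0.46 from dp18 to Lac10 in mutants. The Lep change from V to Lac10 was called under 6 of 17 alternatives in mutants (0.72 to 2.40, adjusted p 0.00188 to 0.717) and 12 of 17 in wild type (1.34 to 2.30, adjusted p 5.83e-06 to 0.0859); its step from dp12 to dp18 in both genotypes was called under 21 of 22 (1.36 to 2.29, adjusted p 0.00222 to 0.695). The replicate block, possible in wild type alone, called 2 genes from V to Lac10. The share of all genes called with the block is not given, so this count is not read as a result. As the numbers do not pair samples, the block was not used elsewhere. It moved no other count of calls by over 1.5 times. With 3 arrays a group, a median SE of 0.43 limits what can be called.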
